A study of Homo sapiens with 9 samples.

Results

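MEX3D, TEX19 and EMC4 are 3 human genes that each held several sites of N6-methyladenosine (m6A) in HepG2 cells with a control shRNA, and that were picked for having lost those sites when SETD2 was knocked down. Their sites were taken from the 3 deposited site lists by position and strand on build hg19. The limits used were chromosome 19 from 1554668 to 1568057 on the minus strand for MEX3D, chromosome 17 from 80317123 to 80321652 on the plus strand for TEX19, and chromosome 15 from 34517203 to 34522366 on the plus strand for EMC4. Together the genes held 13 of the 3755 sites of the control list, 1 of the 482 sites of the list of the first SETD2 hairpin and 1 of the 697 sites of the list of the second. Over the whole control list 5.99% of sites were listed again with hairpin 1 and 6.50% with hairpin 2, and 89.7% with neither, so the loss of a site was the usual outcome. The lists show a complete loss for TEX19 alone. EMC4 kept 1 of its 4 sites with hairpin 1, and MEX3D kept 1 of its 5 sites with hairpin 2.

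HepG2 is an established line from a human hepatocellular carcinoma. The cells stably carried, after lentiviral infection and puromycin selection, a non-specific control shRNA (shCtrl) or one of the SETD2 shRNAs shSETD2#1 (hairpin 1) and shSETD2#2 (hairpin 2), with 3 labelled replicates for each and 9 samples in all. The series title calls the assay miCLIP, a method that crosslinks an m6A antibody to RNA and reads the modified base from C-to-T changes beside it. The labels' protocol describes enrichment of sonicated mRNA with such an antibody and no crosslinking, so calling these positions m6A follows the authors' lists. The 3 replicates of a shRNA share 1 list, so values below have no replicate error. The lists hold no transcript levels, and their site values are not scaled between lists. Less transcript, less m6A per transcript and fewer reads from a library thus cannot be told apart.

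m6A is placed on mRNA by a methyltransferase complex built around METTL3 and METTL14, and it is known to gather near stop codons and in the 3′ parts of transcripts, where reader proteins bind it and affect RNA decay and translation. SETD2 is the enzyme that sets the trimethyl mark on lysine 36 of histone H3 in the bodies of active genes. The comparison asks which m6A sites are still listed when the cells have less of this enzyme. MEX3D encodes an RNA-binding protein of the MEX-3 family, with KH domains that contact RNA and a RING finger. TEX19 encodes a mammalian protein known from germ cells and pluripotent cells, where it takes part in the control of retrotransposons. EMC4 encodes a subunit of the ER membrane protein complex, which inserts transmembrane segments of newly made proteins into the endoplasmic reticulum.

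Each listed site is 1 nt long and carries a score, a whole number of at least 3 set by the authors. The score is taken here as the number of reads over the site, which is an inference from the order of the site names and not stated in the files. On that reading the order also gives how many of those reads were changed from C to T, and these numbers are called reconstructed below. The genes were chosen from their site counts in these same lists, so those counts are a description and no test was made of them.

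TEX19 had 4 control sites and none with either hairpin. In the order of transcription they lay at positions 80320985, 80321080, 80321372 and 80321484 of chromosome 17, which is 667, 572, 280 and 168 nt before the 3′ limit of the gene. Their control scores were 126, 33, 23 and 33. The first site was covered most deeply, the second and the last had equal scores, and no TEX19 site was among the shallow ones of the control list, whose median score was 14.

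The changed reads of TEX19 were spread unevenly over its sites. The second and the third sites had 5 changed reads of 33 (15.2%, 95% exact Clopper-Pearson interval 5.11 to 31.9) and 4 of 23 (17.4%, 4.95 to 38.8). The deepest site had 3 of 126 (2.38%, 0.494 to 6.80), and the last had 1 of 33 (3.03%, 0.0767 to 15.8). The control list's own median share was 4.55% among its sites with scores of 20 to 99 and 1.82% among those with scores of 100 to 299. The second and the third sites lay above 87.7% and 91.2% of the control sites in their score range, while the last lay above 30.0% of them. The middle pair of TEX19 sites thus had the highest shares.

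MEX3D had 5 control sites, 4 of them close together. From the 5′ side these 4 lay at positions 1556340, 1556268, 1556030 and 1555770 of chromosome 19, between 1672 and 1102 nt before the 3′ limit, at gaps of 72, 238 and 260 nt. Their control scores were 133, 263, 161 and 7, so 3 of them were among the deeper sites of the list and the one nearest the 3′ limit was at the shallow end. The fifth site stood alone at position 1567978, 79 nt inside the 5′ limit and 11638 nt from the next, with a score of 31.

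Changed reads at the MEX3D sites ranged from 1 to 5. They numbered 3 of 133 (2.26%, interval 0.468 to 6.45), 5 of 263 (1.90%, 0.620 to 4.38) and 2 of 161 (1.24%, 0.151 to 4.42) at the 3 deep sites. The remaining sites had 1 changed read each, of 7 at position 1555770 and of 31 at the 5′ site. The background rate of C-to-T change fitted to the control list was 1.57%, and it lay inside the interval of each of the 3 deep sites. The same held for 10 of the 13 sites of the 3 genes, the exceptions being the second and the third TEX19 sites and the second EMC4 site, whose intervals lay above it. The share of all control sites with such an interval was not counted, so this is not a result about these genes. Of the 10 sites, 5 had 1 changed read, and so few leave the interval wide (0.361 to 57.9 for 1 of 7). In their score range, with a median share of 1.82%, the 3 deep MEX3D sites lay above 61.0%, 54.4% and 33.8% of control sites. Summed over its sites MEX3D had 12 changed reads among 595, or 2.02%, against 13 among 215, or 6.05%, for TEX19 and 11 among 360, or 3.06%, for EMC4. Neighbouring sites can share reads, so no interval is given for these sums. Over the control list the median share was 4.55% at scores of 20 to 99 and 1.82% at 100 to 299. The sums mix sites of unlike score and so do not compare the genes at like score.

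With hairpin 1 no MEX3D site was listed. With hairpin 2 the site at 1556340 was listed, with a score of 34 against 133 in control, which is 3.91-fold lower. Its reconstructed C-to-T reads were 1 of 34 (2.94%, interval 0.0744 to 15.3), against 3 of 133 in control, and the intervals of these shares overlap. The overlap cannot show that the share was kept, because no site enters a list without a changed read. The site kept was the third deepest of the gene: the sites at 1556268 and 1556030, with higher control scores, were in neither knockdown list.

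EMC4 had 4 control sites within 195 nt at the 3′ end of the gene. They lay at positions 34522077, 34522108, 34522258 and 34522272 of chromosome 15, 289, 258, 108 and 94 nt before the 3′ limit. Their control scores were 57, 14, 280 and 9, so the third site alone held most of the gene's score of 360. It had 7 changed reads of 280 (2.50%, interval 1.01 to 5.08), the highest number among the 13 sites. The others had 1 of 57, 2 of 14 and 1 of 9. In the order of transcription the shares of the 4 sites lay above 11.9%, 58.7%, 64.4% and 0% of control sites in their score ranges.

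Hairpin 1 kept that deepest EMC4 site, and hairpin 2 kept no EMC4 site. The score with hairpin 1 was 50 against 280 in control, 5.60-fold lower, with 1 changed read of 50 (2.00%, interval 0.0506 to 10.6). The share of changed reads was 2.50% in control, and the intervals overlap. With 1 changed read, the least that a listed site can have, this overlap cannot show that the share was kept. Only 14 nt separate this site from the last one of the gene, and a site within 50 nt is counted as the same in one of the alternatives, which leaves 2 EMC4 sites unmatched in place of 3. All 4 were on the EMC4 strand, and the labels name a stranded library kit.

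**Figure D1:**
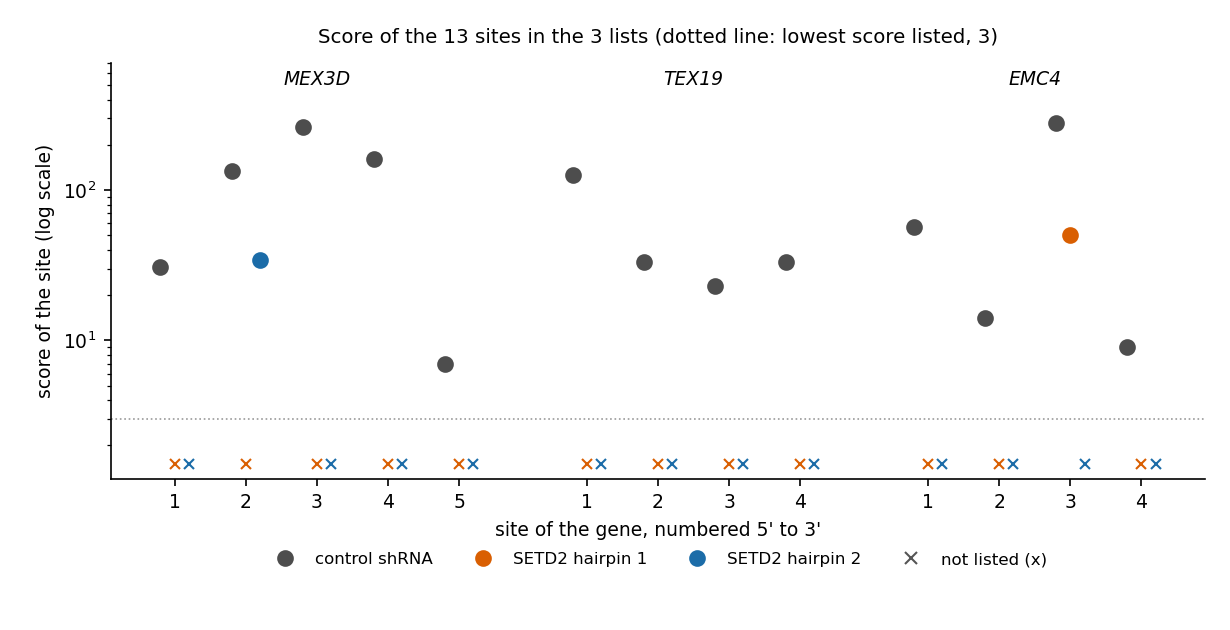
Score (log scale) of each of the 13 control sites of MEX3D, TEX19 and EMC4, numbered from the 5′ side of each gene, in the control list (grey) and in the lists of hairpin 1 (orange) and hairpin 2 (blue); crosses mark sites that a list does not hold. The knockdown points are 2 in all: the second MEX3D site with hairpin 2 at 34 and the third EMC4 site with hairpin 1 at 50, both below their control scores of 133 and 280.

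Most sites of the 3 genes lay towards the 3′ limit. Of the 13 control sites, 12 lay in the last 1672 nt of their genes, in 3 clusters of 1 per gene, and those 12 lay 85.3% or more of the way from the 5′ to the 3′ limit. EMC4 sites lay nearest to the 3′ limit, TEX19 sites next and the MEX3D cluster farthest, with no overlap between the ranges of 94 to 289 nt for EMC4 and 1102 to 1672 nt for MEX3D. The TEX19 range, 168 to 667 nt, overlapped that of EMC4. Whether these stretches are coding or untranslated, and what share of all control sites lies so near a 3′ limit, was not analysed here. No site of any list lay on the opposite strand within the limits, and none lay within 1000 nt outside them on the same strand.

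**Figure D2:**
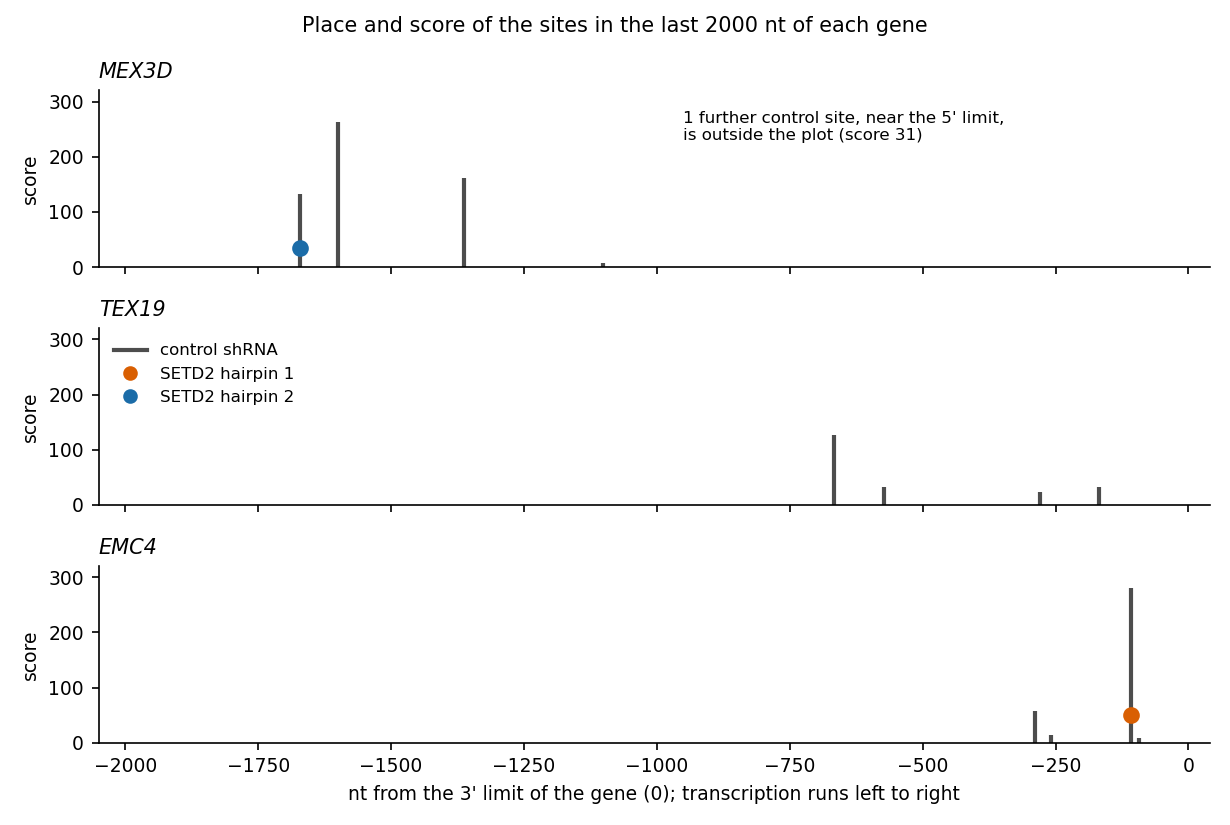
Score of the listed sites against their distance in nt from the 3′ limit of MEX3D, TEX19 and EMC4 (0 at the right), with grey bars for control and points for hairpin 1 (orange) and hairpin 2 (blue). The EMC4 sites sit within 289 nt of the limit and the MEX3D cluster between 1102 and 1672 nt from it; the fifth MEX3D site, near the 5′ limit, is outside the plotted range.

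Just outside the limits the lists were sparse. The nearest control sites on the same strand were 8943 nt beyond the 5′ limit of MEX3D, with a score of 10, and 120365 nt before the 5′ limit of TEX19, with a score of 61. For EMC4 they were 2852550 and 2462162 nt away. With hairpin 2 a site was listed 9288 nt beyond the 5′ limit of MEX3D, with a score of 13, at a different base from the control site there.

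Site by site, the 3 genes were like the rest of the control list. Of their 13 sites, 11 were in neither knockdown list, or 84.6%, against 89.7% of all 3755 control sites. That share is near the background and is not a result about these genes.

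The share missing from both lists fell with control score, and the sites of the 3 genes were deeper than most. Their median score was 33 against 14 for the control list, and 5 of the 13, or 38.5%, had a score of 100 or more against 11.8% of the list. In the list, 98.0% of sites with scores of 3 to 9 were in neither knockdown list, and 96.5% of those with 10 to 19. The share was 85.9% for scores of 20 to 99, 70.7% for 100 to 299 and 31.7% for 300 or more. At scores of 20 to 99, all 5 sites of the 3 genes were missing, 3 of TEX19 and 1 each of MEX3D and EMC4. At scores of 100 to 299, 3 of 5 were missing: MEX3D at 1556268 and 1556030 and TEX19 at 80320985. In that range 19.1% of control sites were listed with hairpin 1 and 15.8% with hairpin 2, and of these 5 sites 1 was listed with each hairpin. No site of these genes reached 300, the range in which most control sites were found again with at least 1 hairpin.

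**Figure D3:**
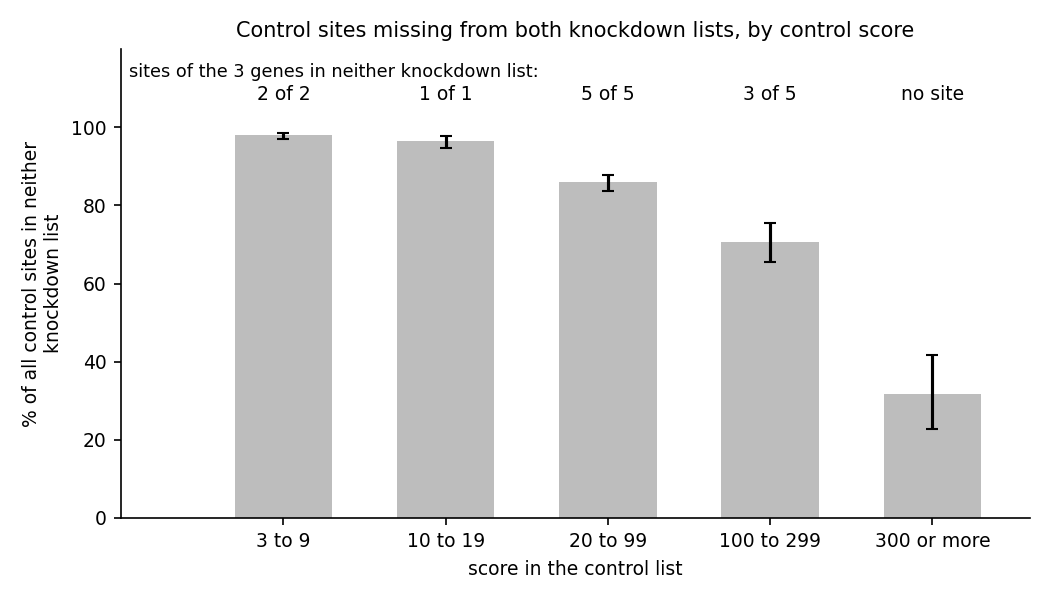
Share of all control sites, in percent, that neither knockdown list holds, by score in the control list, with 95% exact Clopper-Pearson intervals that cover counting error only; the counts above the bars are the sites of MEX3D, TEX19 and EMC4. The bars fall from 98.0% at scores of 3 to 9 to 31.7% at 300 or more, and the 2 sites of these genes that were kept are both in the range of 100 to 299.

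Most groups of 4 or more neighbouring control sites held at least 1 knockdown site. Such a site counted anywhere between the first and last control positions on the same strand, also at a base not listed in control. When same-strand control sites at gaps of up to 1000 nt were joined, 20 groups held 4 or more sites, 4 of them mitochondrial, and 5 of the 20, or 25.0%, held no site of either knockdown list. The clusters of MEX3D, TEX19 and EMC4 were 3 of these 20 groups and had 4 sites each. Among the 14 groups of exactly 4 sites, 35.7% were empty in both lists, and among the 57 groups of 3 or more sites 45.6% were. TEX19 was one of the empty 5, EMC4 was one of 2 groups with a site of hairpin 1 alone, and MEX3D was one of 3 with a site of hairpin 2 alone. The other 10 groups had sites of both hairpins.

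Groups with sites of both hairpins had higher summed scores than the empty ones. All 5 empty groups had exactly 4 sites, while the 20 groups held up to 10, so sums and spans also depend on the number of sites. The 10 groups found with both hairpins had sums from 847 to 22855, and the 5 empty ones from 48 to 215. TEX19, with a summed score of 215, was at the top of the empty groups. One group with a hairpin 2 site had the same sum. The EMC4 sum of 360 was the lower of the 2 groups with hairpin 1 alone, and the sum of 564 for the MEX3D cluster was the highest of the 3 with hairpin 2 alone. All 3 genes were below the median of 861.5 over the 20 groups. Their groups were also short: the EMC4 group spanned 195 nt, less than any other of the 20. The TEX19 group spanned 499 nt and the MEX3D group 570 nt, against a median of 1013.5 nt over the 20. No median of sum or span was taken over the groups of exactly 4 sites.

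At sites that a knockdown list shared with control the scores were lower, and the part of this in the loss of sites was not tested. At the 225 control sites also listed with hairpin 1 the score was 7.01-fold lower at the median (quartiles 3.36 to 13.1), and at the 244 listed with hairpin 2 it was 4.93-fold lower (1.77 to 10.3). Over all sites of each list the control median was 14, against 11 for hairpin 1 and 15 for hairpin 2. Scores of 100 or more made up 11.8% of the control list, 12.0% of the list of hairpin 1 and 16.8% of that of hairpin 2, so the sites listed with hairpin 2 did not have lower scores as a whole. The kept EMC4 site, at 5.60-fold, and the kept MEX3D site, at 3.91-fold, lay inside these quartiles. Divided by the median ratios, the control scores of 10 of the 13 sites stayed at or above 3, the lowest score listed, with either hairpin. The exceptions were the MEX3D site nearest the 3′ limit and the second and the last EMC4 sites. The lowest of those 10 control scores was 23, and 60.9% of all control sites had a lower score. The count thus restates that these sites were deep, and the same share over all control sites was not counted.

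Scaled in the same way, the changed reads came to about 1 or fewer per site with hairpin 1. A listed site needs at least 1 changed read. The control number divided by the median ratio was highest at the kept EMC4 site, with 0.999 for hairpin 1 and 1.42 for hairpin 2. At the second TEX19 site and at the MEX3D site at 1556268 it was 0.713 for hairpin 1 and 1.01 for hairpin 2. At the kept MEX3D site it was 0.428 and 0.608. Of the 11 sites in neither knockdown list, 3 were above the kept MEX3D site in this measure, 1 was equal and 7 were below. Shared sites are those listed both in control and with a hairpin, so these ratios may understate or overstate the fall at the other sites. Of the 482 sites listed with hairpin 1 and the 697 with hairpin 2, 225 and 244 were control sites. The others did not enter the ratios.

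**Figure D4:**
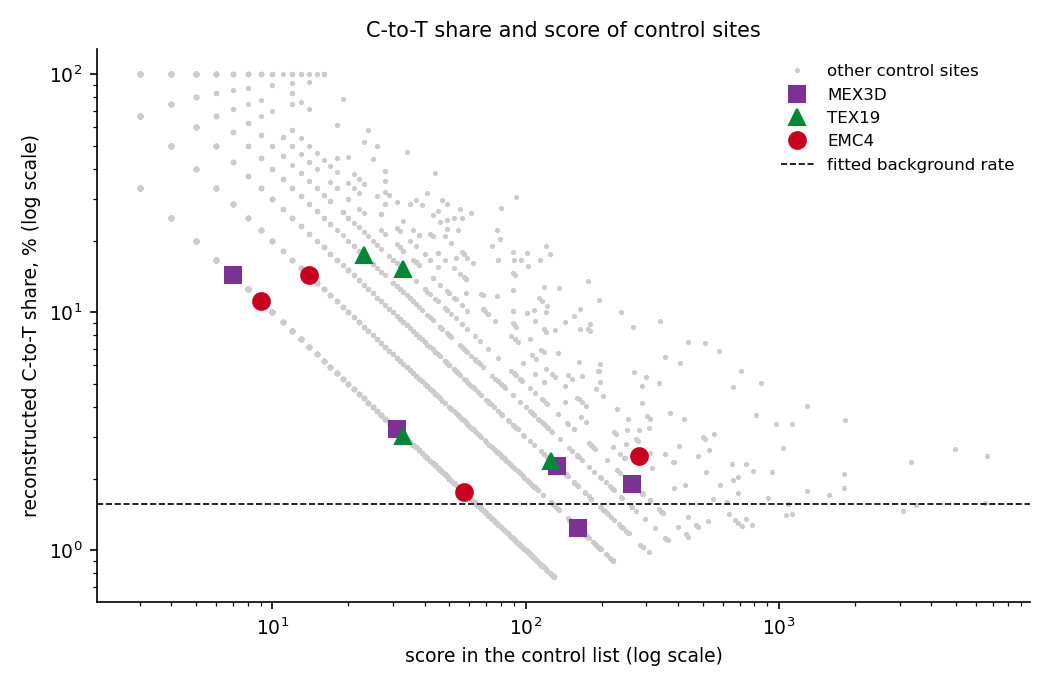
Reconstructed share of C-to-T reads in percent against score, both on log scales, for control sites with a single possible read number (grey) and for MEX3D (squares), TEX19 (triangles) and EMC4 (circles); the dashed line is the background rate of 1.57% fitted to the control list. The second and the third TEX19 sites, at 15.2% and 17.4%, lie above most sites of like score, and the MEX3D site at 1.24% lies below the line.

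The order of the sites by support in control depended on the measure. By score and by number of changed reads the kept EMC4 site came first of the 13. Single changed reads lay under 5 of the 13 sites, or 38.5%, against 40.9% of the control list. The authors' running numbers, which on the reading above order a list by its binomial probability with the lowest first, put the second TEX19 site behind 24.3% of control sites, the third behind 25.6% and the second EMC4 site behind 42.1%. The kept EMC4 site came behind 69.3% and the kept MEX3D site behind 82.7%. The 3 sites with the lowest running numbers were missing from both knockdown lists. Their control scores were 33, 23 and 14. Missing from both were 85.9% of control sites with scores of 20 to 99 and 96.5% of those with 10 to 19. The share at like running numbers was not counted. Each of the sites kept rested on 1 changed read in its knockdown list. The same held for 62.4% of all sites listed with hairpin 1 and 58.7% of those with hairpin 2. Neither is a result about these genes.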

How the data were processed

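Per the submitters' processing notes, FastQC 0.11.5, cutadapt 1.13 and Bowtie 1.1.2 were used with build hg19, and rbsSeeker and CT appear in the site names. For rbsSeeker no version or filter, and for the replicates no way of pooling, is given in the sources used here. The deposited lists give a score per site, a whole number set by the authors, not scaled between lists. Score sums were 256360, 23420 and 51597 for control, hairpin 1 and hairpin 2; library read totals were not used here.

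Sites were assigned to the genes by position and strand, and shared when both were equal. Changed reads were reconstructed as whole numbers that keep all 3755, 482 and 697 sites in the order of their running numbers by binomial tail probability, at fitted rates of 1.57%, 1.43% and 1.00%. The method was also run on simulated lists. Those were ordered by the same rule, so the run cannot show that the score is a number of reads. All 13 sites had a single possible number. Intervals are 95% exact Clopper-Pearson intervals; they cover counting error only, since PCR copies were not told apart. The genes and ranges of score were chosen with earlier results of these data known. All sites of the 3 genes are named by a rule that covers each of them. The other MEX3 genes and ER membrane complex subunits, and the sequence around the sites, were not analysed here. That SETD2 was depleted rests on the labels, since the lists hold no SETD2 level. Python 3.11.15, numpy 2.4.6, scipy 1.17.1, pandas 2.3.3 and matplotlib 3.10.9 were used.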

Additional observations from a re-analysis of the deposited data

How the results depend on the processing

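With a minimum score of 5, with sites within 10 nt merged, with both strands counted or with gene limits widened by 1000 nt, the genes held 13 control sites and 11 were in neither knockdown list. A minimum score of 10 left 11 and 9, and matching within 50 nt left 10 of 13 unmatched. Over all control sites the missing share ranged from 88.8% to 90.1%. Groups of 3 or more control sites were empty in both knockdown lists in 45.6% (26 of 57), from 43.9% to 58.0% with another minimum score, gap or width. For groups of 4 or more, a size picked once the data had been seen, the share was 25.0% (5 of 20); these are fewer and larger groups. The lowest and highest fitted background rates gave the same changed reads at all 13 sites. No paired analysis was possible because the replicates of a shRNA share 1 list, and for the same reason no replicate could be left out. Since 5 of the 13 sites had 1 changed read in control, absence from a knockdown list does not show that a site was unmodified.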
